A study of Mus musculus with 4 samples.

Results

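Jaw bones were set against bones of the trunk and limb on 1-colour whole-genome arrays. The jaw class held the maxilla and the mandible, the trunk and limb class held the ilium and the femur, and each bone was assigned by the tissue named in its label, so the comparison uses 4 of the 4 arrays of the series. All 4 bones came from male C57BL/6 mice (C57BL/6J in the series text) aged 35 days. The labels name no mutant allele and no agent for any of these bones. The study also grafted such bones into skull defects of other mice, and that experiment is not analysed here. The sources used here leave unstated the count of mice per bone, and what was done with the teeth, lining tissue and muscle attached to it. Of 20616 genes tested, 1192 belonged to 47 lists of gene families and functions other than enamel, Hox and blood cell genes, and those lists are described here.

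The jaw skeleton is built largely by cells of the cranial neural crest, whereas the ilium and the femur form from mesoderm. Jaw bones hold the teeth, whose roots are lined by epithelial remnants and a ligament, and they lie directly under the oral mucosa. The maxilla also borders the nasal cavity. The ilium and the femur enclose blood-forming marrow and serve as attachments for the locomotor muscles.

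Values are log2 array signals relative to the array's own 75th percentile, so 1 unit is 2-fold and levels of different genes cannot be set against each other. Where 4 values follow a gene name they stand in the order ilium, femur, maxilla and mandible. Differences are jaw minus trunk and limb, ± the SE from limma over 2 bones per class. With 1 array per bone, the 2 bones of a class give the error, so animal-to-animal spread is not in the p-values. A gene was called when its p-value, adjusted by Benjamini-Hochberg over all genes tested, was under 0.05. A gene was separated by size, without a test, when the lower value of one class exceeded the higher value of the other by at least 1. Where neither array of 1 class was well above background for a gene, its value there is only bounded, and its difference is written as "at least N-fold". Such a gene entered the test only through the class where it is high, and its p-value draws on values at background. These were 21 of the 169 genes called in the 47 lists, and a list's count among genes well above background on all 4 arrays is given where it loses a call. With 1 bone left out, 1 class rests on 1 value and fewer values have to lie apart, and the size counts over all genes were then 2108 to 3637 higher and 2139 to 3211 lower.

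The ilium and the femur differed by a median of 0.192 in absolute value over the genes tested, and the maxilla and the mandible by 0.453. Between 72.8% and 75.5% of spots were well above background per array and 0 were saturated. Over all genes limma called 929 genes higher in the jaw bones (4.51%) and 1494 lower (7.25%), 11.8% together, and the smallest adjusted p was 0.0325. The size rule separated 1925 upwards (9.34%) and 2024 downwards (9.82%), 19.2% together, and 2422 genes met both criteria. The median difference of all genes was -0.03. Median centring, or the deposited series table, moved that median to -0.28 and the share of calls that were higher from 38.3% to 26.8% and 27.2%, and quantile normalization to 31.3%. Without either the ilium or the femur there were 0 calls by limma over all genes, where 3550 and 2628 genes passed 0.05 before adjustment against 7082 in the full fit, so every limma count given here is then 0. Without the maxilla limma called 6166 genes and without the mandible 8204.

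Bone itself was detected in all 4 samples. Of 14 genes of bone matrix, osteoblasts and osteocytes, 0 were called by limma in either direction and 0 were separated by size, with 4 at an unadjusted p under 0.05, although all 14 differences were positive (median 0.89, from 0.44 without the femur to 1.29 without the ilium). With fewer bones 8 of the 14 were separated upwards without the ilium and 6 without the maxilla. The collagen I genes Col1a1 (6.71, 6.57, 7.10 and 6.63) and Col1a2 (7.59, 7.50, 8.06 and 7.59) overlapped between the classes and differed by 0.22 ± 0.26 and 0.28 ± 0.26. The osteocalcin gene Bglap stood at 7.55, 7.30, 7.85 and 8.06. Among osteocyte genes, Sost, which encodes the Wnt inhibitor sclerostin, stood at -0.19, -0.55, -0.59 and 0.61, Dmp1 at 2.33, 1.30, 2.46 and 2.62, and Mepe at 3.91, 3.45, 3.92 and 4.38. Sost overlapped between the classes, and Dmp1 and Mepe were separated by less than the gap between the ilium and the femur. Phex, a regulator of phosphate, had the largest difference of the list at 1.80, 0.93, 2.52 and 3.63 (1.71 ± 0.55; adjusted p = 0.125). The osteoblast transcription factor genes Runx2 (0.93, 0.56, 1.51 and 1.93) and Sp7 (1.25, 0.19, 1.48 and 2.62) were both highest in the mandible. So were Alpl, the tissue alkaline phosphatase gene (2.10, 1.80, 3.07 and 3.54), and the matrix gene Ibsp (2.47, 1.61, 2.87 and 3.05). Ifitm5 (0.59, -0.79, 0.46 and 1.08) overlapped, and Pdpn (-4.28, -4.88, -3.44 and -2.57) did not. The summed signal of these 14 genes, in multiples of the array's 75th percentile, was 526, 460.3, 684.6 and 635.

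The samples were not bone alone. Summed in the same way, 3 tooth matrix genes reached 0.2679 (ilium), 0.05544 (femur), 86.1 (maxilla) and 245.3 (mandible), and 6 epithelial marker genes reached 0.6455, 0.8072, 172.6 and 72.8. The 4 markers of airway and gland reached 223.5 in the maxilla but at most 0.3093 in the other bones, and 2 of them, Foxj1 and Dcpp1, were not well above background on either trunk or limb array. Skeletal muscle markers summed to 264.4, 240.7, 29.1 and 166.4. Of 46 blood cell genes 36 were called lower in the jaw and 0 higher, with a median of -2.53 and summed signals of 2546, 2561, 1702 and 1475. The globin genes Hba-a1, Hba-a2 and Hbb-bt and the neutrophil genes S100a8, S100a9, Camp and Ltf were not among the 36. In such bulk samples fewer cells of a type and less RNA per cell cannot be told apart.

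**Figure D1:**
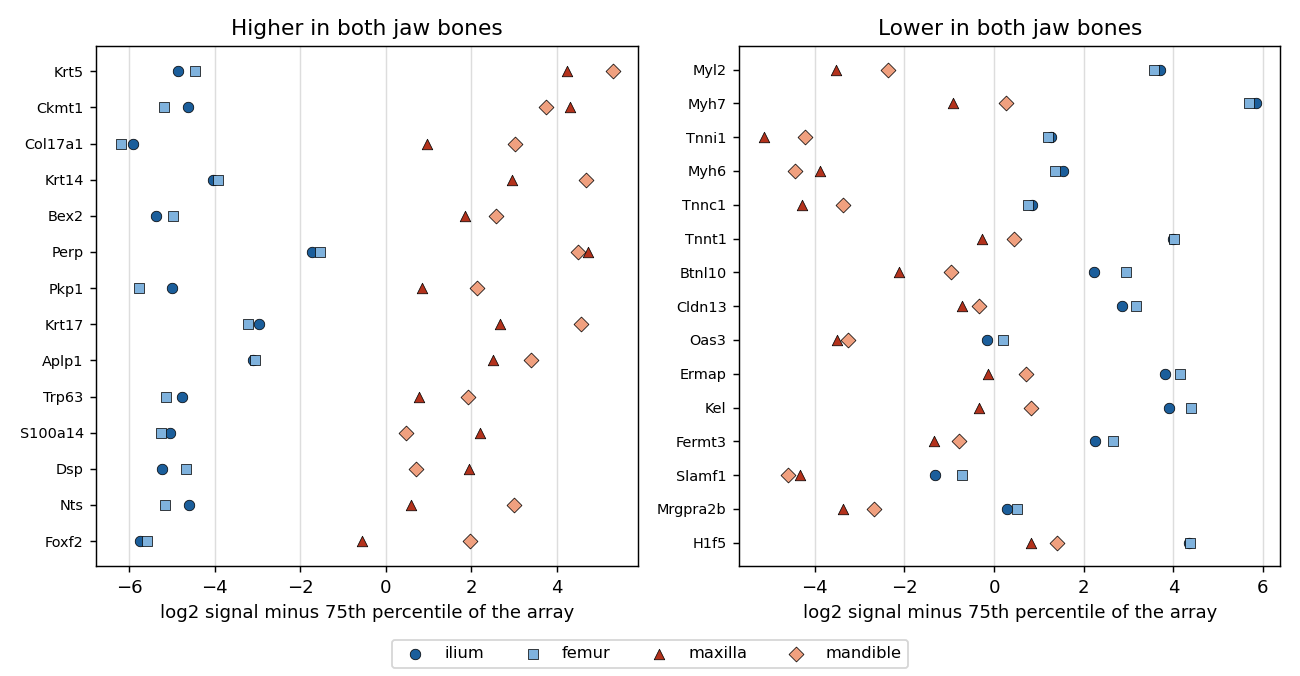
Array values of 14 of the 15 genes higher and the 15 lower in both jaw bones with the widest gap between the classes, leaving out Hox, enamel and blood lists, on a log2 scale relative to the 75th percentile of each array. Each point is 1 bone. In the left panel Krt5 lies at -4.86 (ilium), -4.47 (femur), 4.22 (maxilla) and 5.31 (mandible), and in the right panel Myh7 lies at 5.84 and 5.69 against -0.91 and 0.26.

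Of the 15 genes with the widest gap upwards among genes well above background on all 4 arrays, 9 belonged to the keratin, desmosome, basement membrane or epithelial regulator lists. Of the 15 downwards, 6 belonged to the slow muscle list. Beyond those 9, the genes with the widest gap included Ckmt1, which encodes a mitochondrial creatine kinase, at -4.62, -5.18, 4.31 and 3.74 (8.93 ± 0.35; adjusted p = 0.0325). Bex2 stood at -5.36, -4.96, 1.84 and 2.58, and Aplp1, which encodes a relative of the amyloid precursor protein, at -3.10, -3.05, 2.50 and 3.39 (6.02 ± 0.38; adjusted p = 0.0325). Nts, the neurotensin precursor gene, stood at -4.60, -5.16, 0.59 and 2.98, and S100a14 at -5.04, -5.25, 2.20 and 0.47. In all 5 the classes lay far apart and the ilium and femur lay within 0.6 of each other.

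Downwards, beside the muscle genes, Btnl10 (2.23, 2.95, -2.12 and -0.97), Ermap (3.81, 4.15, -0.12 and 0.71) and Kel (3.90, 4.38, -0.34 and 0.82) were lower in both jaw bones. Ermap and Kel encode blood group proteins of the red cell membrane. The 3 red cell markers Alas2, Rhag and Klf1 summed to 143.2, 152.5, 19.8 and 28.8. The globin genes did not follow: Hba-a1 differed by -0.18, Hba-a2 by -0.10 and Hbb-bt by 0.03, with other Hbb-bt probes from -1.81 to 0.13. Fermt3, the kindlin gene of blood cells, stood at 2.25, 2.66, -1.35 and -0.79 (-3.52 ± 0.31; adjusted p = 0.0325). Slamf1, a receptor gene of lymphocytes, stood at -1.31, -0.72, -4.32 and -4.60, and a dimmer Slamf1 probe differed by only -0.79. Mrgpra2b, a receptor gene of the Mas-related family, stood at 0.30, 0.50, -3.36 and -2.67. The part of the blood cells in these differences was not tested.

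Epithelial genes were higher in the jaw by family. Of 32 keratin genes tested, 8 were called higher and 0 lower, against 4.51% and 7.25% of all genes, and 16 were separated upwards by size and 1 downwards. The median difference was 3.22, or 2.12 with 6 genes at their bound, 1.42 with normexp background correction and 1.65 without the maxilla. Among the 20 keratin genes well above background on all 4 arrays, 5 were called higher. Krt5 and Krt14 form the keratin pair of the basal cell layer. Krt5 differed by 9.43 ± 0.46 (adjusted p = 0.0325), and Krt14 stood at -4.05, -3.91, 2.94 and 4.67 (7.78 ± 0.66; adjusted p = 0.0325). Krt17 stood at -2.96, -3.22, 2.66 and 4.55. These 3 genes were higher in the mandible than in the maxilla. The reverse held for Krt15, not well above background on either trunk or limb array, which stood at 4.67 in the maxilla and 1.37 in the mandible, at least 733-fold above the trunk and limb (adjusted p = 0.0342). Krt8, a keratin of simple epithelium, stood at -4.94, -4.97, 5.51 and 0.97 and missed the threshold (8.19 ± 1.67; adjusted p = 0.0606). Krt86, a hair keratin, was the 1 member separated downwards (-3.09, -2.90, -4.31 and -5.47; adjusted p = 0.0824), while Krt84, Krt9 and Krt88 differed by 0.09, 0.38 and 0.40.

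Desmosomes are the junctions that hold keratin filaments at the cell border. Of 13 desmosome genes tested 9 were called higher and 0 lower, and 11 were separated upwards by size, with a median of 3.87, or 3.66 with 2 genes at their bound. Of the 9 well above background on all 4 arrays 8 were called. Perp, a desmosomal membrane protein gene, stood at -1.72, -1.54, 4.73 and 4.48 (6.23 ± 0.22; adjusted p = 0.0325). The plakophilin gene Pkp1 stood at -4.99, -5.77, 0.84 and 2.14, the desmoplakin gene Dsp at -5.22, -4.67, 1.95 and 0.70, and the envoplakin gene Evpl at -1.62, -2.17, 2.19 and 2.99, each called with an adjusted p of 0.0325. Dsg2 was not well above background on either trunk or limb array and at least 57.8-fold higher in the jaw. Pkp3, which stood at 0.31, 0.52, 2.01 and 1.89, rose by 1.53 ± 0.21 (adjusted p = 0.0363), and Jup, shared with other junctions, differed by 1.31 ± 0.24 (adjusted p = 0.0526). Cdsn, of the cornified layer, was the 1 tested member with a negative difference (-4.94, -3.75, -5.75 and -6.47; adjusted p = 0.115), and it was well above background in only 1 jaw bone. Other Dsp probes gave differences from 2.64 to 6.23 and other Dsg2 probes from 4.20 to 5.06.

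Regulators of epithelial identity moved with their structural genes. All 20 tested members of that list had positive differences (median 4.23, or 4.17 with 3 genes at their bound), and 7 were called higher and 0 lower, or 4 of the 14 well above background on all 4 arrays. Trp63, which directs basal epithelium, stood at -4.76, -5.14, 0.78 and 1.92 (6.30 ± 0.48; adjusted p = 0.0325; another probe 3.30). The E-cadherin gene Cdh1 stood at -3.11, -2.47, 2.36 and 1.68 (4.81 ± 0.39; adjusted p = 0.0325). Spint1, a protease inhibitor gene, and Esrp2, a splicing factor gene of epithelium, were called higher too (8.08 ± 0.67 and 5.59 ± 0.69), with fitted differences that are not exact because each was well above background in only 1 of the 2 trunk and limb bones. Klf5 (0.02), Marveld1 (0.69) and Klf4 (0.74) had the smallest differences, and none of these 3 was called. The 6 epithelial markers given above, at 172.6 and 72.8 in the jaw bones, belong to the keratin or regulator lists, so they are no separate measure of epithelium. Their sum was higher in the maxilla, as were 20 of 32 keratin, 9 of 13 desmosome and 16 of 20 regulator genes. Krt5, Krt14 and Trp63 were higher in the mandible. The part of the amount of epithelium in these families was not tested.

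Tight junction genes leaned upwards, with 22 of 25 differences positive. Of the 25 tested, 5 were called higher and 2 lower, against 4.51% and 7.25% of all genes. Among the 18 well above background on all 4 arrays the counts were 4 and 2. By size 11 were separated upwards and 2 downwards. The median was 1.68, from 1.02 without the maxilla to 2.57 without the mandible. Ocln, the occludin gene, was not well above background on either trunk or limb array and at least 10.9-fold higher in the jaw (adjusted p = 0.0482). Cldn11 stood at -5.73, -5.17, -0.66 and -2.40 (3.92 ± 0.70; adjusted p = 0.0499). Cldn2, Cldn8 and Marveld3 were separated by size, at least 22.5-, 23.6- and 27.2-fold, with adjusted p of 0.0514, 0.0847 and 0.101. All 3 were higher in the maxilla, as with Cldn8 at 0.37 there and -4.24 in the mandible. In the other direction Cldn13, a claudin gene of blood-forming tissue, stood at 2.85, 3.17, -0.70 and -0.35 (-3.53 ± 0.26; adjusted p = 0.0325), and Cldn15 at 0.91, 1.01, -2.22 and -1.34 (-2.74 ± 0.38; adjusted p = 0.0366). Cldn5 of vessel walls (1.06, 1.08, 0.96 and 0.78), Cldn14 (0.04) and Tjp3 (0.01) were not called, and Tjp3 spanned 1.45 in the maxilla to -3.65 in the mandible.

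The base of an epithelium rests on an epithelial laminin, integrin alpha 6 beta 4 and collagens VII and XVII. Of 24 genes of basement membrane and hemidesmosome 5 were called higher and 0 lower, 11 were separated upwards, and 22 had positive differences (median 1.37). Its chain genes Lamb3 (-4.46, -4.43, -0.10 and 3.06) and Lama3 (-4.54, -4.84, -0.52 and 2.44) were both higher in the mandible than in the maxilla. They differed by 5.93 ± 1.17 and 5.64 ± 1.10, with adjusted p of 0.0579 and 0.0569, and were separated by size but not called. A dimmer Lama3 probe differed by -0.03. Itgb4, the integrin beta 4 gene, stood at -0.87, -1.08, 2.32 and 3.25 (3.76 ± 0.39; adjusted p = 0.0325), whereas its partner Itga6, also present on blood and vessel cells, stood at 1.81, 2.50, 1.90 and 2.16 (-0.13 ± 0.33). Frem2 differed by 4.35 ± 0.93 (adjusted p = 0.065), Lamc3 by 0.33 and Plec by -0.52.

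Among 43 collagen genes 6 were called higher and 1 lower, or 6 and 0 of the 38 well above background on all 4 arrays. The median was 0.56, or 1.02 without the ilium and 0.99 without the maxilla. In 37 of the 43 the difference was positive. Col17a1, the collagen of the hemidesmosome, stood at -5.89, -6.18, 0.96 and 3.02 (8.03 ± 0.78; adjusted p = 0.0325; another probe 4.17). Col7a1, the anchoring fibril collagen gene, stood at 0.59, 0.19, 2.32 and 2.64, and Col6a4 at -3.94, -4.06, -2.0 and -1.58. Col23a1 stood at -3.61, -3.83, -0.62 and 1.17 (4.00 ± 0.68; adjusted p = 0.0475). Col26a1, highest in the mandible at 2.48, was separated by size only (adjusted p = 0.138). Col6a6 was the 1 collagen gene called lower: not well above background on either jaw array, it was at least 3.9-fold higher in the trunk and limb (adjusted p = 0.0383). The bone collagen gene Col1a1, Col12a1 of tendon (0.21) and Col8a1 (-0.21) had the smallest differences.

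Of 24 genes of elastic fibres and collagen crosslinking 3 were called higher and 0 lower, and 4 were separated upwards (median 1.15, or 0.63 without the mandible). Without the maxilla 14 were separated upwards. They included Efemp1, a fibulin gene, at -2.14, -2.45, 0.84 and 0.32 (2.87 ± 0.29; adjusted p = 0.0325), Mfap4 at 0.74, 0.15, 2.63 and 2.87, and the lysyl oxidase gene Loxl2 at 2.57, 2.94, 4.46 and 4.48 (1.72 ± 0.23; adjusted p = 0.0363). Fbln1 was separated by size (2.84 ± 0.65; adjusted p = 0.0728). Loxl3, Emilin1 and Ltbp1 differed by -0.01, 0.18 and 0.20. Of 16 small leucine-rich proteoglycan genes 0 were called and 0 separated, with 6 at an unadjusted p under 0.05 and a median of 0.40. The median was -0.02 without the femur, 0.91 without the ilium, where 7 were separated upwards, and 1.01 without the maxilla, where 4 were. Kera (0.07), Chadl (0.12) and Prelp (-0.22) had the smallest differences there.

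Of 38 metalloproteinase and inhibitor genes 1 was called higher and 3 lower, near the 4.51% and 7.25% of all genes. Among the 34 well above background on all 4 arrays the counts were 0 and 3. The median over the 38 was 0.60. Adamts16 was not well above background on either trunk or limb array and at least 24.0-fold higher in the jaw (adjusted p = 0.0325), and Adamts19, at -3.75 in the maxilla and 0.13 in the mandible, was at least 25.7-fold higher by size alone (adjusted p = 0.0648). The neutrophil collagenase gene Mmp8 stood at 4.72, 5.02, 1.79 and 2.82 (-2.57 ± 0.43; adjusted p = 0.0471). Mmp25, also of neutrophils, stood at -0.78, -0.53, -4.04 and -3.06, and Mmp9, of neutrophils and osteoclasts, at 4.47, 3.89, 2.32 and 2.57 (-1.74 ± 0.30; adjusted p = 0.0474). The neutrophil markers Mpo, Elane and Ngp, all called lower, summed to 235.9, 229.2, 24.8 and 50.2. Of other neutrophil genes, Prtn3, Ctsg and Lcn2 were also called lower, whereas S100a8 (-1.02) and Camp (-1.24) were not called. S100a9 (7.87, 7.86, 8.15 and 7.75) and Ltf (7.13, 7.16, 7.30 and 5.26) overlapped between the classes. The part of neutrophils in the differences of Mmp8, Mmp25 and Mmp9 was not tested. Mmp15 was separated upwards by size (2.30 ± 0.73; adjusted p = 0.122), and Mmp7, Mmp24 and Adamts8 differed by -0.05, -0.11 and 0.17.

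**Figure D2:**
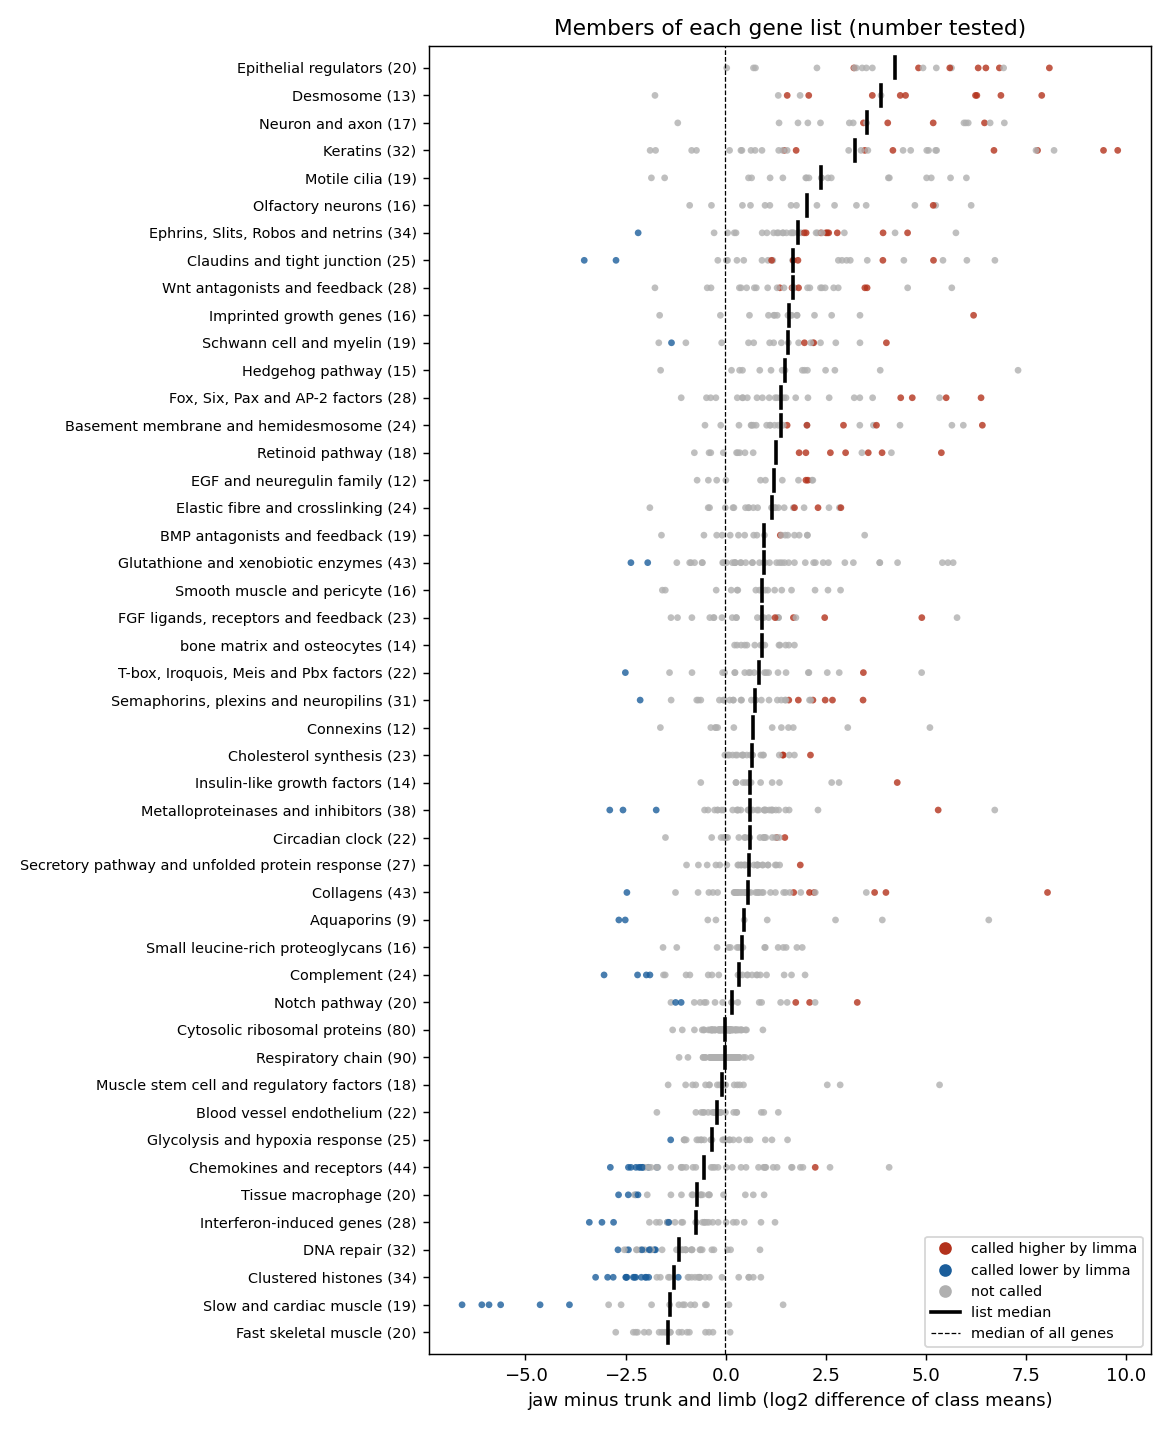
Differences between jaw and trunk and limb bones (log2) for every tested member of 47 gene lists, sorted by the list median (black bar). Points in red were called higher and in blue lower by limma, grey points were not called, and the dashed line is the median of all genes at -0.03. Epithelial regulators lie highest with a median of 4.23, and muscle, histone and DNA repair lists lie lowest.

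Some transcription factor genes beyond Hox also separated the bones. Of 28 forkhead, sine oculis, paired-box and AP-2 factor genes 4 were called higher and 0 lower, or 3 and 1 of the 24 well above background on all 4 arrays. By size 9 were separated upwards, and the median was 1.38. Foxf2, a factor of facial and gut mesenchyme, stood at -5.75, -5.58, -0.55 and 1.97 (6.37 ± 0.94; adjusted p = 0.0392). Pax9, required for teeth, stood at -6.03, -6.02, -1.15 and -1.58 (4.65 ± 0.24; adjusted p = 0.0325). Osr2, a palate and tooth factor gene, and Tfap2c, an AP-2 gene of ectoderm, were not well above background on either trunk or limb array and at least 20.2- and 34.8-fold above the trunk and limb (adjusted p = 0.0325 and 0.0435). Pax3, of neural crest and muscle precursors, was separated by size at least 14.9-fold (-1.18 in the maxilla, -4.02 in the mandible; adjusted p = 0.0614). Foxp4 (-0.25), Foxl2 (-0.38) and Pax7 (0.29) were not called, and Pax7 of muscle stem cells overlapped between the classes at -4.31, -4.41, -3.0 and -5.15.

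Of 22 T-box, Iroquois, Meis and Pbx genes 1 was called in each direction, near the background, or 2 higher and 0 lower of the 18 well above background on all 4 arrays, with 5 separated upwards and 1 downwards (median 0.84). Irx2 stood at -5.27, -6.06, -1.54 and -2.92 (3.43 ± 0.61; adjusted p = 0.0499). Tbx18 was not well above background on either jaw array, and at least 2.8-fold higher in the trunk and limb (adjusted p = 0.0325). Tbx1, a gene of the pharyngeal arches, stood at -1.40, -0.32, 0.83 and 2.51 (2.53 ± 0.75; adjusted p = 0.11), and Tbx3 at -0.53, -0.60, 1.46 and 3.08 (adjusted p = 0.0678). Irx1, at 0.32 and 0.22 in the jaw, was well above background in the ilium (-2.64) but not the femur (-6.59), so its difference is not exact. Meis3 differed by 1.5 ± 0.27 (adjusted p = 0.0517). Tbx15, Irx4 and Meis1 had differences of -0.03, -0.08 and 0.22.

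Growth factor pathways were described from ligand to feedback gene. Of 23 FGF pathway genes 4 were called higher and 0 lower (median 0.90, or 0.53 without the mandible). Among the ligands, Fgf10, a mesenchymal signal to epithelium, stood at -3.23 in the maxilla and -3.24 in the mandible, was not well above background on either trunk or limb array, and was at least 9.6-fold higher in the jaw (adjusted p = 0.0325). Fgf9, an epithelial ligand, stood at -3.94, -4.47, -1.73 and -1.75 (2.47 ± 0.27; adjusted p = 0.0325), while Fgf18 (-0.82, -0.98, -0.54 and -0.93) overlapped. The receptor gene Fgfr2 stood at 0.04, -0.35, 1.59 and 1.48 (1.69 ± 0.24; adjusted p = 0.0377), and the response gene Etv5 at -4.77, -5.04, -3.69 and -3.65 (1.23 ± 0.21; adjusted p = 0.0482; another probe 0.26). The feedback gene Spry1 (0.60, 0.47, 0.36 and 0.52) overlapped. Of the related intracellular factors, Fgf12 was at least 45.1-fold higher by size, at 1.91 in the maxilla and -3.91 in the mandible (adjusted p = 0.158), and Fgf13 differed by 0.26.

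Hedgehog signals pattern the face and the tooth. Of 15 tested Hedgehog genes 0 were called by limma, with 6 at an unadjusted p under 0.05, all higher, and 5 were separated upwards by size (median 1.48, or 2.24 without the maxilla). The ligand gene Shh was not well above background on either trunk or limb array and at least 39.1-fold higher in the jaw, at -3.30 in the maxilla and 0.88 in the mandible (adjusted p = 0.0638). Smo, the signal transducer, stood at 1.82, 1.41, 3.14 and 4.16 (2.04 ± 0.44; adjusted p = 0.0666), and Gli3, a transcription factor gene, at -1.52, -2.29, 0.05 and 1.58 (2.72 ± 0.65; adjusted p = 0.0781). Dhh, another ligand, differed by 1.97 ± 0.39 (adjusted p = 0.058). Hhip, which binds the ligands, stood at -3.10 and -1.52 in the jaw and was well above background in the ilium (-4.67) but not the femur, so its difference is not exact. Sufu, Hhat and Disp1 differed by 0.14, 0.34 and 0.42. Of the 15 genes 11 were higher in the mandible than in the maxilla. Tooth matrix signal was also higher in the mandible, and its part was not tested.

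Notch genes went both ways. Of 20 tested 3 were called higher and 2 lower, and the median was 0.15, which became -0.11 with median centring or the series table, -0.15 without the mandible and 0.54 without the maxilla. With median centring 0 were called higher and 2 lower. The ligand gene Jag1 stood at -0.60, -0.95, 1.07 and 1.56 (2.09 ± 0.29; adjusted p = 0.0367), and Jag2 at -3.18, -3.29, -1.66 and -0.34 (adjusted p = 0.0743). The target genes Hey1 (0.81, -0.05, 3.14 and 4.17) and Hes1 (-3.37, -3.88, -1.89 and -1.87) were called higher, by 3.28 ± 0.52 and 1.75 ± 0.26. The fringe genes, whose enzymes add sugars to Notch receptors, were called lower in 2 of 3 cases. Mfng stood at 0.60, 0.71, -0.67 and -0.53 (-1.25 ± 0.20; adjusted p = 0.0435) and Lfng at -0.52, -0.47, -1.59 and -1.63 (-1.11 ± 0.19; adjusted p = 0.0474), while Rfng stood at -3.74, -3.66, -3.85 and -3.71. The receptor gene Notch2 and the ligand gene Dll4 differed by 0.15 and 0.14.

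Wnt signals were represented by their secreted inhibitors, R-spondins and feedback genes. Of 28 tested 5 were called higher and 0 lower, 15 were separated upwards and 1 downwards, against 9.34% and 9.82% of all genes, and the median was 1.68. Rspo1, which amplifies Wnt signals, stood at -1.70, -1.87, 0.92 and 2.45 (3.47 ± 0.59; adjusted p = 0.0474), and Rspo3 was not well above background on either jaw array, with a bound of only 1.2-fold. The R-spondin receptor gene Lgr6 stood at -4.71, -6.12, -1.63 and -2.15 (3.53 ± 0.58; adjusted p = 0.0451), but a dimmer Lgr6 probe differed by 0.55. The inhibitor genes Sostdc1 (-5.08, -5.75, -1.32 and 1.77), Sfrp2 (0.82, -1.11, 3.82 and 4.96) and Sfrp1 (-2.84, -2.86, 0.20 and -0.94) were separated by size, with adjusted p of 0.0623, 0.0527 and 0.0519. Dkkl1 was separated downwards (-0.40, -0.31, -1.64 and -2.61; adjusted p = 0.0714). Sost and Kremen2 differed by 0.38 and 0.34.

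Of 19 BMP antagonist and feedback genes 1 was called higher and 0 lower, against 4.51% and 7.25% of all genes. The size rule separated 6 upwards, and the median was 0.96, or 0.40 without the mandible. By size 2 were separated upwards with median centring or the series table and 10 without the maxilla. The 1 called, Twsg1, stood at -0.12, -0.40, 1.13 and 1.07 (1.36 ± 0.21; adjusted p = 0.0428), and its other probes ranged from -0.33 to 1.59. The follistatin-like gene Fstl1 stood at 3.11, 2.71, 4.21 and 5.28 (adjusted p = 0.0831). The response genes Id1 and Id4 differed by 1.71 ± 0.44 and 2.03 ± 0.38 (adjusted p = 0.088 and 0.0532). The antagonist genes Chrd (-3.16, -3.01, -3.28 and -3.08), Fstl3 (0.11) and Chrdl1 (-0.23) were not called, and Chrd overlapped.

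Insulin-like growth factor genes gave 1 call in 14, higher, against 4.51% of all genes. The median was 0.61, from 0.38 without the mandible to 0.91 without the maxilla. Igfbp2, which binds the ligands, stood at -2.08, -3.41, 1.88 and 1.20 (4.28 ± 0.58; adjusted p = 0.0363). The ligand gene Igf2 stood at 0.70, 0.54, 2.61 and 3.91 (2.64 ± 0.51; adjusted p = 0.0564), whereas Igf1 (0.80, 0.72, 0.72 and 1.66) and the receptor genes Igf1r (0.25) and Insr (0.26) had small differences. Igfbp3 was separated by size at -1.71, -1.43, 0.07 and 2.45 (adjusted p = 0.123). Igf2 is also imprinted. Of 16 imprinted growth genes tested 1 was called higher and 0 lower, against 4.51% and 7.25% of all genes. By size 4 were separated upwards (median 1.58). The 1 called was Dio3, an enzyme that inactivates thyroid hormone, at -4.09, -4.69, 0.40 and 3.19 (6.19 ± 1.06; adjusted p = 0.0475). Plagl1 differed by 1.78 ± 0.40 and Rian by 1.77 ± 0.50 (adjusted p = 0.0695 and 0.102). In 15 of these 16 genes the mandible exceeded the maxilla, the exception being Phlda2 at -1.50 in the maxilla and -5.04 in the mandible. Over all genes tested the maxilla was higher in 9386 of 20616. Gnas and Grb10 differed by -0.14 and 1.06.

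In the EGF family 2 of 12 genes were called higher and 0 lower (median 1.20, or 0.63 without the maxilla). Erbb2, a receptor gene, stood at -1.67, -2.04, 0.47 and -0.07 (2.05 ± 0.30; adjusted p = 0.0399), and Lrig3, a receptor regulator, at 0.66, -0.02, 2.51 and 2.13 (2.00 ± 0.34; adjusted p = 0.0474). Egfr was separated by size (0.16, -0.54, 1.28 and 1.16; adjusted p = 0.0717), as was the ligand gene Tgfa at least 3.5-fold (another probe 0.08). The ligand gene Hbegf (0.00) and the receptor gene Erbb4 (-0.23) were not called, nor was Nrg1, at -2.89 in the maxilla and -6.05 in the mandible.

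The retinoid pathway had 7 of 18 genes called higher and 0 lower, and 9 separated upwards, with a median of 1.26. Retinoic acid is made from vitamin A, bound in the cell and degraded, in turn. Of the synthesis enzymes, Aldh1a3 stood at -2.13, -2.46, 0.75 and 2.46 (3.90 ± 0.66; adjusted p = 0.0474) and Aldh1a2 at -3.62, -2.06, 0.39 and 0.73 (3.40 ± 0.61; adjusted p = 0.0507), while Aldh1a1 (3.53, 3.80, 4.95 and 2.25) overlapped. The binding protein gene Crabp1 stood at -5.38, -4.78, 0.08 and 0.52 (5.38 ± 0.33; adjusted p = 0.0325). Of the receptors, Rarb, itself a retinoic acid target, stood at -1.94, -2.37, 0.22 and 1.45 (2.99 ± 0.51; adjusted p = 0.0474). The degrading enzyme gene Cyp26a1 stood at -4.03, -3.64, -1.44 and 2.03 and was separated by size (adjusted p = 0.119). Dhrs3 (0.27) and Stra6 (0.30) were not called. The median of the list was 0.68 with only genes well above background on all 4 arrays and 0.69 with normexp, and 3 genes were called with quantile normalization, the series table or no filter.

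Guidance molecules steer axons and set cell boundaries. Of 34 ephrins, Eph receptors, Slits, Robos and netrins 9 were called higher and 1 lower, 16 were separated upwards, and 32 differences were positive (median 1.81). The lower call was lost among genes well above background on all 4 arrays, with normexp and with quantile normalization. The Eph receptor genes Epha1 (-4.58, -4.56, 0.33 and -0.39) and Epha7 (-4.61, -4.47, -1.03 and -0.19) differed by 4.54 ± 0.32 and 3.93 ± 0.36, and Ephb6 (-4.93, -5.45, -2.58 and -2.66) and Ephb3 (-0.58, -1.32, 1.51 and 2.17) by 2.57 ± 0.27 and 2.78 ± 0.41. All 4 were called, with adjusted p from 0.0325 to 0.039. The ligand gene Efna3, at -0.15 in the maxilla and -3.83 in the mandible, was separated by size only (adjusted p = 0.127) and was not well above background in the femur. Ntng2, a netrin gene, was called lower, not well above background on either jaw array, and at least 2.3-fold higher in the trunk and limb. Slit1, Unc5a and Ntn4 differed by 0.05, 0.21 and 0.26.

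Of 31 semaphorin, plexin and neuropilin genes 6 were called higher and 1 lower (median 0.73). The ligand genes Sema3e (-4.08, -4.43, -1.18 and -0.49), Sema3c (-4.20, -4.56, -2.17 and -2.24) and Sema3d (-3.90, -3.81, -2.28 and -1.80) rose by 3.43 ± 0.34, 2.17 ± 0.23 and 1.81 ± 0.26. The plexin receptor genes Plxnb1 (-2.18, -2.97, 0.03 and 0.15) and Plxna3 (-3.14, -3.74, -0.73 and -1.19) rose by 2.66 ± 0.34 and 2.48 ± 0.33. Sema4a, which immune cells carry, fell (2.74, 2.94, 0.62 and 0.78; -2.14 ± 0.21; adjusted p = 0.0325). Sema5b, Sema4d and Sema6d differed by -0.04, -0.06 and 0.10.

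Of 17 neuron and axon genes 4 were called higher and 0 lower, or 2 of the 8 well above background on all 4 arrays, 12 were separated upwards, and the median was 3.51, or 3.44 with 4 genes at their bound. Tubb3, a neuronal tubulin gene, stood at -1.53, -1.62, 1.88 and 1.83 (3.44 ± 0.19; adjusted p = 0.0325), and Map2 at -4.28, -4.72, 0.33 and -1.25 (4.04 ± 0.63; adjusted p = 0.0419). The neurofilament gene Nefl was not well above background on either trunk or limb array and at least 32.1-fold higher in the jaw, and unlike most of the list it was higher in the mandible (-0.03) than in the maxilla (-2.95). Stmn3 and Chgb, at 2.40 and 1.55 in the maxilla and -1.28 and -2.49 in the mandible, were separated by size (adjusted p = 0.0618 and 0.085). Nefh, another neurofilament gene, had the 1 negative difference of the list (-1.20 ± 0.57; adjusted p = 0.231). Scg2 (1.33) and Syt1 (1.80) were not called, and a dimmer Syt1 probe gave 5.69. The 3 neuron markers summed to 2.309, 1.716, 19.4 and 4.521 and the 3 Schwann cell markers to 0.3819, 0.3557, 3.551 and 1.178, and the amount of nerve in each sample was not tested as a part of these results.

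Among 19 Schwann cell and myelin genes 3 were called higher and 1 lower, or 2 and 1 of the 17 well above background on all 4 arrays (median 1.56). S100b, a calcium-binding protein gene of glia, stood at 1.43, 1.15, 3.54 and 3.44 (2.20 ± 0.22; adjusted p = 0.0325). Gldn, of the node of Ranvier, was at least 5.6-fold higher in the jaw. Cnp was called lower (2.54, 2.72, 1.33 and 1.22), and Mbp separated downwards by its brightest probe (-1.67 ± 0.40), although its other probes gave 2.03 and 2.58. Mal and Pmp22 were separated upwards (adjusted p = 0.0716 and 0.0823). L1cam, Egr2 and Foxd3 differed by -0.10, 0.57 and 0.70.

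Olfactory neuron genes and genes of motile cilia were highest in the maxilla. Of 16 olfactory genes tested 1 was called higher and 0 lower, against 4.51% and 7.25% of all genes. With normexp, or among the 11 well above background on all 4 arrays, 0 were called. The median was 2.02, and 15 of 16 were above the mandible in the maxilla. The median difference from the trunk and limb mean was 4.14 for the maxilla and 0.80 for the mandible. Gng13, a G protein subunit gene of taste and smell, stood at -6.09, -5.97, 3.36 and -4.95, Lhx2 at -4.05, -4.10, 2.41 and -1.12, and the chloride channel gene Ano2 at 0.73 in the maxilla and -5.01 in the mandible. The 1 called was Gap43, a growth cone gene also listed as neuronal, at -2.33 and -3.94 in the jaw and at least 10.3-fold above the trunk and limb (adjusted p = 0.0336). Of 19 motile cilia genes 0 were called, with 7 at an unadjusted p under 0.05 (5 higher, 2 lower), and all 19 were above the mandible in the maxilla. Their medians were 4.52 for the maxilla and 0.34 for the mandible. The ciliary dynein gene Dnah9 (2.11 and -2.87 in the maxilla and mandible), the regulator gene Foxj1 (2.65 and -4.48) and Ccdc39 (-0.45 and -4.83) were not well above background on either trunk or limb array. A dimmer Dnah9 probe differed by only 0.05 between the classes. Mns1 was separated downwards (3.98, 4.14, 2.67 and 1.74; adjusted p = 0.0638). The airway and gland markers, which include Foxj1 of the cilia list, summed to 223.5 in the maxilla against 0.1834 in the mandible, and their part was not tested.

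**Figure D3:**
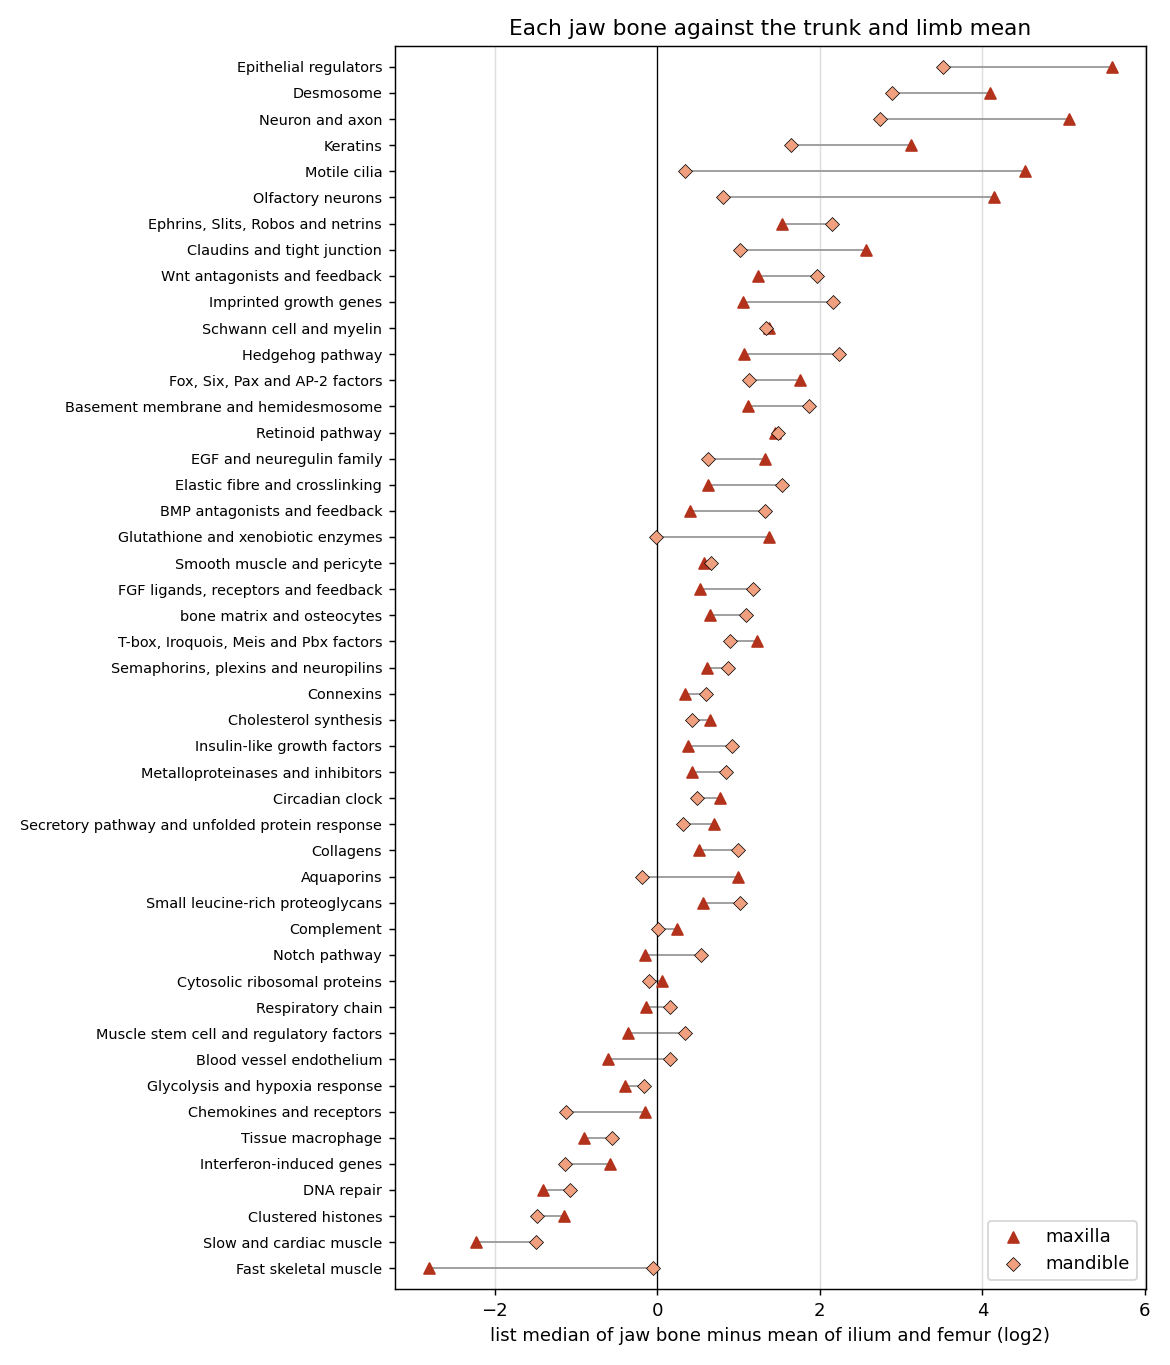
Median of each gene list in the maxilla (triangles) and in the mandible (diamonds), each minus the mean of the ilium and femur, on a log2 scale, with the lists sorted by their class difference. Motile cilia (4.52 and 0.34), olfactory neurons (4.14 and 0.80) and fast skeletal muscle (-2.81 and -0.06) show the widest gaps between the jaw bones.

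Slow skeletal and heart muscle share a set of contractile genes, and of 19 such genes 6 were called lower in the jaw and 0 higher, with 10 separated downwards (median -1.40). The median difference from the trunk and limb mean was -2.23 (maxilla) and -1.50 (mandible). The maxilla exceeded the mandible in 3 of the 19. Myl2, the slow regulatory light chain gene, stood at 3.70, 3.57, -3.53 and -2.36, and Myh7, the slow myosin heavy chain gene, at 5.84, 5.69, -0.91 and 0.26. The troponin genes Tnni1 (1.26, 1.21, -5.13 and -4.22), Tnnc1 (0.86, 0.76, -4.28 and -3.37) and Tnnt1 (3.98, 4.01, -0.26 and 0.45) and the myosin gene Myh6 (1.53, 1.37, -3.89 and -4.45) completed the 6. In each the 2 jaw bones lay within 1.2 of each other. Mb, the myoglobin gene, stood at 5.74, 5.88, 4.68 and 7.10, Cox6a2 at 5.31, 5.36, 3.60 and 6.05, and Atp2a2, the slow calcium pump gene, at 1.5, 1.63, 1.59 and 0.57. These 3 overlapped between the classes.

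Of 20 fast muscle genes 0 were called, with 0 at an unadjusted p under 0.05 (median -1.43), and all 20 were higher in the mandible than in the maxilla. The median difference from the trunk and limb mean was -2.81 for the maxilla and -0.06 for the mandible. Actn3, an actinin gene of fast fibres, stood at 5.58, 5.60, 1.25 and 4.43, and the fast myosin gene Myh4 at 7.79, 7.83, 4.47 and 6.65. Another fast myosin gene, Myh1, stood at 6.20, 6.26, 5.55 and 7.13, with its highest value in the mandible. So did the troponin genes Tnnc2 (7.40, 7.40, 6.55 and 7.61) and Tnni2 (7.70, 7.69, 6.66 and 7.89). In the mandible the fast muscle median was thus near the trunk and limb value, with 7 of 20 genes above their trunk and limb mean. Single genes departed from it, as with Actn3 and Myh4, which stood lower. Myh7 and Myl2 of the slow list were lower in both jaw bones. The skeletal muscle markers given above, Ckm, Actn3, Mylpf and Myh7, belong to the fast and slow lists, so they are no separate measure of muscle. The part of the amount of muscle was not tested. Of 18 muscle stem cell and regulatory genes 0 were called and 3 were separated upwards, among them Pax3 and Tbx1 given above, with 3 at an unadjusted p under 0.05 and a median of -0.09 that was 0.05 with normexp and 0.35 without the maxilla. Mef2c (1.90, 1.88, 1.29 and 2.17), Myh3 (-0.03) and Musk (0.00) were near 0. Musk was not well above background on either jaw array.

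Part of the interferon-induced genes had lower values in the jaw. Of 28 tested 5 were called lower and 0 higher, against 7.25% and 4.51% of all genes, and 6 were separated downwards (median -0.74, from -1.13 without the maxilla to -0.58 without the mandible). Rsad2, which encodes the antiviral enzyme viperin, stood at 4.41, 4.47, 1.08 and 1.62 (-3.09 ± 0.27; adjusted p = 0.0325). Oas3, a sensor of double-stranded RNA, stood at -0.16, 0.21, -3.51 and -3.26 (-3.41 ± 0.25; adjusted p = 0.0325; another probe -2.20). Isg15, a ubiquitin-like protein gene, stood at 3.38, 3.43, 0.63 and 0.58 (-2.80 ± 0.19; adjusted p = 0.0325). The array design places the Isg15 probe on chromosome 17 (45870420 to 45870479, mm8), whereas RefSeq has the gene on chromosome 4, so a related copy could share its signal. Irf7, a transcription factor gene of the response, was separated by size (-0.33, -0.02, -1.67 and -2.49; adjusted p = 0.0568). Others did not follow: Gbp2 stood at -0.40, -0.30, 0.12 and -0.45, Gbp3 at 0.35, 0.50, 0.55 and -0.08, and Oasl2 at -0.02, 0.19, 0.48 and -0.30, all overlapping. The blood cell genes, with 36 of 46 called lower, were also lower in the jaw, but the jaw bones ranked differently. Against the trunk and limb mean the interferon median was -0.58 (maxilla) and -1.13 (mandible), and the blood median -2.75 and -2.32. The maxilla exceeded the mandible in 23 of 28 interferon genes and in 10 of 46 blood genes. The part of blood cells was not tested.

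Interferon-induced promoters often carry a response element with paired GAAA blocks, and the promoters of genes that fell and of 1 that did not are shown to let the blocks be compared. The block GAAA, any 2 bases and GAAA again, read on both strands in RefSeq windows of 300 bases (250 before to 50 after a gene's start; GRCm38.p6), occurred in 1131 of 32851 windows (3.44%) and in 14 of 25 windows of 22 list genes (56%). They occurred in all 4 windows of 4 of the 5 genes called lower and in 10 of 21 windows of genes not called (47.6%). Capitals mark the matches, which read as paired TTTC blocks where they lie on the opposite strand, as in Rsad2 and Gbp2, and each window is read in the direction of its gene.
Rsad2 (chr12:26456403-26456702, minus strand): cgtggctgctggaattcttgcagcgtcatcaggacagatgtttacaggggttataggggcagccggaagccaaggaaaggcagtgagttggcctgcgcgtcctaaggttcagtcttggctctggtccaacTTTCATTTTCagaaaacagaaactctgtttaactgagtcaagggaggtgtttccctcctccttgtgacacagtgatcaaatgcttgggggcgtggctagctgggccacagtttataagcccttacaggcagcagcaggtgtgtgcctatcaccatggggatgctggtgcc
Oas3 (chr5:120777610-120777909, minus strand): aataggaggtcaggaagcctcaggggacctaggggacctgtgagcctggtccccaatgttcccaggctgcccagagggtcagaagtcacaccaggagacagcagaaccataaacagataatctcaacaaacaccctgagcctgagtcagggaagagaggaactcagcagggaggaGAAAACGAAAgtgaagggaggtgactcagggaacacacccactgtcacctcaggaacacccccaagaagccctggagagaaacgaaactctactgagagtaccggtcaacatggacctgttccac
Isg15 (chr4:156200769-156201068, minus strand): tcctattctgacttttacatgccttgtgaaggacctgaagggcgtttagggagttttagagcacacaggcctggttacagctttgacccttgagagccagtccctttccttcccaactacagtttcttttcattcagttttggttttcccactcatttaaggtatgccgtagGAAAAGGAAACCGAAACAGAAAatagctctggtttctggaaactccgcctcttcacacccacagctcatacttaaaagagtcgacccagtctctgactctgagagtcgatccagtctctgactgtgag
Gbp2 (chr3:142620413-142620712, plus strand): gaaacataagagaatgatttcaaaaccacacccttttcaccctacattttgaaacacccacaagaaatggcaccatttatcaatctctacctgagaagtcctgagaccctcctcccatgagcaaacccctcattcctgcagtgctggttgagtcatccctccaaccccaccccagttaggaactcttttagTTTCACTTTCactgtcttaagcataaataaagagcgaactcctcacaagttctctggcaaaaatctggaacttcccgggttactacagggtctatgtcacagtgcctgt
Rsad2 and Oas3 held 1 match each, at -120 and -75 from the start, and Isg15 held 3 overlapping matches. Gbp2, whose value overlapped between the classes, held 1 match, at -59. A match is only a description of these letters.

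**Figure D4:**
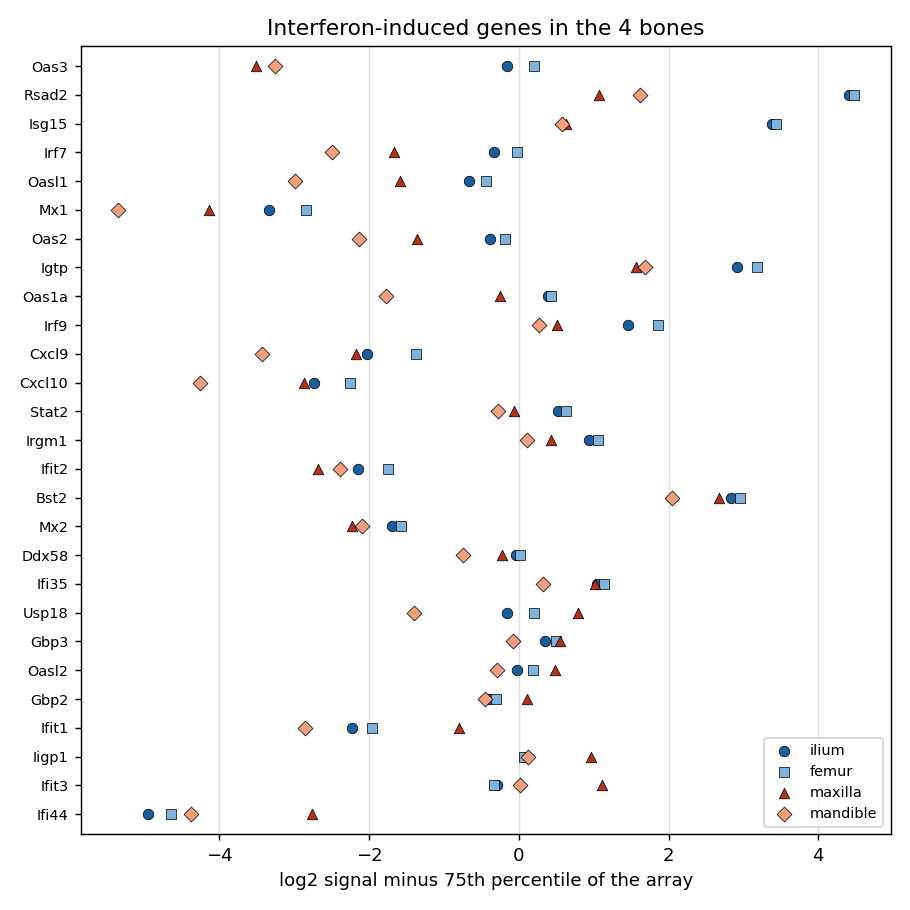
Array values of 27 of the 28 interferon-induced genes in the 4 bones, sorted by the class difference, on a log2 scale relative to the 75th percentile of each array. Each point is 1 bone. Oas3, Rsad2 and Isg15 at the top show both jaw bones at least 2.75 below both other bones, while the genes at the bottom overlap or lie higher in the maxilla.

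Chemokine genes were also lower more often. Of 44 chemokine and receptor genes 10 were called lower and 1 higher, with 13 separated downwards and 4 upwards (median -0.56, from -1.12 without the maxilla to -0.16 without the mandible). Among the receptors, Cxcr2 of neutrophils stood at 1.99, 2.23, -0.96 and -0.58 (-2.88 ± 0.25; adjusted p = 0.0325), Ackr1, of vessels and red cell precursors, at 0.99, 1.46, -1.21 and -1.20, and Cxcr4, which retains blood cells in the marrow, at 1.32, 1.73, -1.0 and -0.68 (-2.37 ± 0.27; adjusted p = 0.0325). Of the ligands, Ccl5 stood at 2.10, 2.55, 0.34 and -0.03 and Ccl6 at 4.21, 4.61, 2.21 and 2.47. The 1 called higher, Ccl12, stood at -4.60, -4.55, -2.16 and -2.52 (2.23 ± 0.23; adjusted p = 0.0325). Ccl8 (-2.50, -2.54, -0.14 and -1.19), Ccl21c (adjusted p = 0.0938) and Cxcl16 (adjusted p = 0.0882) were separated upwards, each higher in the maxilla. Ccl21 genes have near-identical copies, so Ccl21c is uncertain. Ackr4, Xcr1 and Cxcl5 differed by 0.01, 0.16 and -0.19, and Cxcl5 spanned -0.97 in the maxilla to -6.14 in the mandible.

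Of 20 tissue macrophage genes 4 were called lower and 0 higher (median -0.72). Marco, a scavenger receptor gene, stood at -0.46, -0.74, -3.31 and -3.24 (-2.68 ± 0.21; adjusted p = 0.0325), and Spic, the factor of iron-recycling macrophages, at 1.17, 1.59, -1.07 and -1.04. Vcam1 stood at 3.83, 4.27, 1.61 and 2.01 and Itgam, shared with neutrophils, at 0.97, 1.23, -1.36 and -0.83. Siglec1 was separated downwards (adjusted p = 0.0588; another probe -0.35). The general macrophage genes C1qa (1.70, 1.78, 1.25 and 1.41) and C1qb (-0.41) and the microglial and osteoclast gene Trem2 (1.08, 0.66, 0.86 and 0.77) were not called.

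Complement genes gave 4 of 24 lower and 0 higher by limma, or 3 lower and 1 higher of the 21 well above background on all 4 arrays. The median was 0.32, or -0.01 with the median over a gene's probes and 0.01 without the maxilla. The central component gene C3 stood at 5.69, 5.79, 3.85 and 3.67 (-1.98 ± 0.20; adjusted p = 0.0325), and Cfp, the properdin gene of myeloid cells, at 4.14, 4.20, 2.00 and 2.55 (-1.89 ± 0.28; adjusted p = 0.0391). C5ar1 was at least 3.4-fold higher in the trunk and limb, and Mbl1, not well above background in the jaw, was called lower (-2.20 ± 0.23; fitted difference not exact) with no fold above its bound. C1s1 (0.60, 0.48, 1.65 and 2.34) and Masp1 were separated upwards (adjusted p = 0.0667 and 0.0555), with a dimmer Masp1 probe at -1.48. C6 was separated downwards (adjusted p = 0.0503). C4b, C3ar1 and Vtn differed by -0.18, 0.30 and 0.34.

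Clustered histone and DNA repair genes were mostly lower. Of 34 clustered histone genes, most of which are made in S phase, 14 were called lower and 0 higher, and 18 were separated downwards (median -1.29). The linker histone gene H1f5 stood at 4.36, 4.37, 0.83 and 1.40 (-3.25 ± 0.28; adjusted p = 0.0325), H1f3 at 1.63, 1.51, -1.32 and -1.16, and H2ac4 at 3.32, 3.1, -0.09 and 0.61. The core histone genes H4c1 (5.05, 4.92, 2.45 and 2.54) and H3c1 (-1.76, -1.79, -4.34 and -4.15) both fell, by -2.49 and -2.47. Copies of a core histone are nearly identical in sequence, so which copy a probe measured is uncertain. H2bc4 stood at 1.54, 1.83, 2.22 and 1.80, and H2ac6 (-0.10) and H2bu2 (-0.41) were not called either.

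Of 32 DNA repair genes 7 were called lower and 0 higher, 14 were separated downwards, and 29 differences were negative (median -1.17). Rad54l, of recombination repair, stood at 0.64, 0.85, -2.51 and -1.38 (-2.69 ± 0.46; adjusted p = 0.0475). The helicase gene Blm stood at 2.18, 2.48, 0.04 and 0.43 (-2.09 ± 0.26; adjusted p = 0.0342) and Fanci, of the Fanconi pathway, at 1.72, 1.97, -1.06 and -0.11. Brca1 and Exo1 were separated by size (-2.48 ± 0.46 and -2.53 ± 0.55; adjusted p = 0.0532 and 0.0676). Atm (0.04), Fancc (0.12) and Lig4 (-0.30) were not called. With quantile normalization 2 of the list were called and with no filter 1. An E2F site, TTTNNCGC on both strands, occurred in 9 of 31 promoter windows of this list (29%), in 1 of 7 windows of those called lower and in 5.17% of all windows. The blood cell genes were also lower in the jaw (median -2.53), with -2.75 for the maxilla and -2.32 for the mandible against the trunk and limb mean. Those medians were -1.41 and -1.08 for DNA repair genes and -1.15 and -1.48 for histone genes. The part of blood cells was not tested.

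General cell functions set the scale for these differences. Of 80 cytosolic ribosomal protein genes 0 were called and 0 separated, with 3 at an unadjusted p under 0.05 and a median of -0.01 that ranged from -0.27 to 0.10 over the alternatives. Rps29 stood at 6.99, 6.96, 7.06 and 6.89, and Rpl12 at 7.09, 6.88, 7.13 and 6.85. Of 90 respiratory chain genes 0 were called and 0 separated, with 1 at an unadjusted p under 0.05 and a median of -0.03 (-0.28 to 0.19), and 7 were separated downwards without the mandible. Uqcrq stood at 5.99, 5.84, 5.81 and 6.04, Atp5b at 6.25, 6.28, 6.15 and 6.35, and Ndufs5 at 5.71, 5.52, 5.41 and 5.79. In glycolysis and the hypoxia response 1 of 25 was called lower and 0 higher, against 7.25% and 4.51% of all genes. The median was -0.35, or -0.17 without the maxilla. The gene called was the hexokinase gene Hk1 at 3.90, 4.13, 2.66 and 2.61 (-1.38 ± 0.21; adjusted p = 0.0402), while Vegfa (1.27, 1.06, 0.69 and 1.53), Pgam1 and Pfkl overlapped. Egln3, an oxygen sensor gene, was separated upwards (1.54 ± 0.32; adjusted p = 0.0614).

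Cholesterol synthesis genes leaned upwards, with 22 of 23 positive, 3 called higher and 0 lower (median 0.65, or 0.42 without the maxilla). Hmgcs1, an early enzyme, stood at 1.91, 1.70, 3.20 and 3.25 (1.42 ± 0.20; adjusted p = 0.0379), Mvk at -2.60, -2.65, -1.13 and -1.24 (1.44 ± 0.19; adjusted p = 0.036) and Lss at -2.63, -3.01, -0.32 and -1.09 (2.11 ± 0.37; adjusted p = 0.0481), with other Lss probes at 0.32 and 0.82. Pmvk and Nsdhl differed by 0.09 and -0.02. Cyp51 was separated by size (adjusted p = 0.0507). In the secretory pathway and unfolded protein response 1 of 27 was called higher and 0 lower, against 4.51% and 7.25% of all genes. The median was 0.57, or 0.32 without the maxilla. The gene called was Creb3l2, a factor of matrix-secreting cells, at 1.75, 1.38, 3.23 and 3.62 (1.86 ± 0.27; adjusted p = 0.0392). Pdia4 was separated upwards (adjusted p = 0.0508), and Calr (0.03), Sdf2l1 (-0.15) and Atf6 (-0.25) were not called.

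Of 22 circadian clock genes 2 were called higher and 0 lower, against 4.51% and 7.25% of all genes (median 0.59). Clock stood at -0.51, -0.57, 0.75 and 0.71 (1.27 ± 0.19; adjusted p = 0.0402) and Nr1d2 at 0.76, 0.61, 2.28 and 2.04 (1.47 ± 0.22; adjusted p = 0.039). Arntl, the partner of Clock, was separated downwards (-0.19, 0.17, -1.78 and -1.26; adjusted p = 0.0582) and Hlf upwards (adjusted p = 0.0653). The time of day at which each bone was taken is not given in the sources used here. Csnk1e, Csnk1d and Bhlhe41 differed by at most 0.05.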

How the data were processed

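RNA of 1 ilium, 1 femur, 1 maxilla and 1 mandible sample, isolated with a lipid tissue column kit and labelled with Cy3 per the labels' protocols, was hybridised to 4 arrays of 1 slide. The deposited intensity values come, per the file headers, from Agilent Feature Extraction 9.5.3.1 as run by the authors, which subtracts background, detrends and replaces spots not above background (11.5 to 13.8% of spots) by a surrogate. The number of arrays limits the precision. A deposited log2 table, per its values a log2 ratio of each array to the ilium array, has no stated centring and served as an alternative only.

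Control and outlier spots were left out, spots of a probe averaged, and log2 intensity taken relative to the array's 75th percentile. Of 41174 probes 24367 were named by accession, 6307 by symbol and 2425 by an older symbol through RefSeq, and 8075 kept the name in the file. The probe with the highest mean stood for a gene, and dimmer probes are given where they disagree. Genes were tested where 2 or more of 4 arrays were well above background, with limma 3.58.1 (R 4.3.3; lmFit and eBayes, 2 residual degrees of freedom, prior 1.757), jaw minus trunk and limb, and the script was tested on simulated data. A bound sets the bright class's mean against, per array, the higher of the dim probe's own value and the lowest signal among probes well above background.

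Each list is described by the up to 5 members with the widest gap in each direction among those called or separated by size, any member called against the trend of its list, and the 3 with the smallest difference, and bone markers are given in full, except for some genes that the rule names and that are not reported here. Over all genes, 15 per direction were taken by the gap between the classes, without Hox, enamel and blood genes. The comparison, the lists and this rule were chosen with earlier results of these data known. The alternatives changed the normalization, background correction, filter, probe rule and variance prior, and left out each bone.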

Additional observations from a re-analysis of the deposited data

How the results depend on the processing

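No paired analysis was possible because the labels give the bones no replicate numbers. The 929 genes called higher by limma became 600 with quantile normalization, 603 with median centring, 575 with the deposited series table and 396 with no filter on background. The 1494 called lower became 724 with no filter, where more genes are tested. Leaving out 1 bone gave 0 to 4045 called higher and 0 to 4159 lower: 0 without the ilium or the femur, 2966 and 3200 without the maxilla, and 4045 and 4159 without the mandible. In each case the lone bone of a class is assumed to vary like the other class. The size rule gave 1204 higher with normexp in place of 1925, and 2108 to 3637 higher and 2139 to 3211 lower when 1 bone was left out. With all 4 bones the size rule gave fewer higher than lower (1925 and 2024), but more without the ilium (2783 and 2660), without the maxilla (2905 and 2892) and without the mandible (3637 and 3211). The cause was not tested where none is named. Of the 2423 calls, 1750 were shared with quantile normalization, 1977 with median centring, 1899 with normexp and 1877 with the series table. The desmosome median was 2.01 with normexp. Median differences of ribosomal protein genes turned positive with quantile normalization (0.10), without the ilium (0.01) and without the mandible (0.06), and those of respiratory chain genes with quantile normalization (0.19), without the ilium (0.04) and without the maxilla (0.16). Signal over background limits genes near -6.02 to -6.53, the lowest values well above background per array.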

Other observations

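Water channels and detoxifying enzymes divided by jaw bone. Of 9 aquaporin genes 2 were called lower in the jaw and 0 higher, and the median was 0.46, or -0.18 without the maxilla. Aqp2 stood at 0.75, 0.44, -2.02 and -2.13 (-2.67 ± 0.22; limma adjusted p = 0.0325) and Aqp9, a glycerol channel gene of leukocytes, at -1.36, -1.04, -3.32 and -4.09 (adjusted p = 0.0377). Aqp4 was separated upwards, at 2.02 in the maxilla and -0.82 in the mandible (adjusted p = 0.169), and Aqp5, of glands, stood at 5.25 and -4.48 there. Aqp1 of vessels and red cells (4.51, 4.69, 4.15 and 4.15) was not called. Of 43 glutathione and xenobiotic enzyme genes 2 were called lower and 0 higher, against 7.25% and 4.51% of all genes. By size 8 were separated upwards, and in 37 the maxilla exceeded the mandible (median 0.94, or -0.02 without the maxilla). Gsta4 stood at -3.11, -3.13, 1.88 and -0.44 (adjusted p = 0.0704) and Gstt3 at -0.46, -0.65, 2.82 and 1.20 (adjusted p = 0.0803). Those called lower were Gstp3 and Mgst2 (4.17, 4.18, 2.43 and 2.02; adjusted p = 0.034). Gstp1 stood at 5.31, 5.27, 5.09 and 5.38.

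In the vessel wall 0 of 22 endothelial and 0 of 16 smooth muscle and pericyte genes were called by limma, with 3 of each at an unadjusted p under 0.05. The endothelial median was -0.21, or 0.15 without the maxilla. Vwf, the von Willebrand factor gene, also of megakaryocytes, was separated downwards (4.04, 4.55, 2.23 and 2.92; adjusted p = 0.0642), while Egfl7 (2.82, 2.42, 2.19 and 2.77) overlapped. The smooth muscle median was 0.91, or 0.58 without the mandible, with Tagln at 2.36, 1.26, 4.25 and 3.83 (adjusted p = 0.0638) and Itga8 at -1.0, -1.57, 2.04 and 0.49 (adjusted p = 0.0823) separated upwards. Of 12 connexin genes 0 were called, with 2 at an unadjusted p under 0.05, and Gjb6 was at least 17.9-fold higher by size (adjusted p = 0.11).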
